A study of Mus musculus with 9 samples.

Results

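Sox4, Sox11 and Sox12 are the 3 SoxC genes of the mouse, and what is described here is where the bHLH transcription factor TWIST1 was found at them. A peak was counted with a SoxC gene when its summit lay inside the gene body or, outside all 21887 protein-coding genes, nearest to that gene and at most 100 kb away. By this rule 95 of the 232759 peaks in 7 peak lists belonged to the SoxC genes. All but 1 of these came from chromatin immunoprecipitation and sequencing (ChIP-seq) with an antibody to TWIST1 in embryoid bodies, aggregates of differentiating mouse embryonic stem cells, and the other came from unprecipitated input DNA.

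The overexpressing cells (Twist1-OE, here OE) were A2loxcre embryonic stem cells of C57BL/6 strain, per the labels. They lacked endogenous Twist1 (Twist1-/-) and held a Flag-Twist1 cassette switched on by doxycycline. The cells set against them (Twist1-KO, here KO) were Twist1-/- as well, with no cassette. Both were grown towards neuroepithelium for 3 days, per the design text, and received doxycycline for 16 h. By these genotypes the TWIST1 of OE cells is the induced protein, which limits them as a model of endogenous TWIST1 and was not checked here. Peak lists of 4 OE ChIP libraries (1 to 4), 2 KO ChIP libraries (2 and 3) and 1 KO input were used, while 2 further inputs, both from OE cells, were not used here. The design text speaks of biological replicate experiments but nothing ties a number to a culture. Each p-value therefore concerns these libraries alone, and the differences among them may be technical. Peak lists hold no expression values, so the labelled cell type was not checked against markers.

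SoxC proteins are transcription factors with an HMG box, a DNA-binding fold that bends the double helix. They are made in neural progenitors, young neurons, neural crest derivatives and mesenchyme, where Sox4 and Sox11 have overlapping roles in the survival and differentiation of progenitors. Sox11 is best known for activating neuronal genes, Sox4 also for roles in heart, lymphocyte and endocrine development, and Sox12 for milder effects when it is lost alone. TWIST1 pairs with E proteins and binds E-boxes, sequences of the form CANNTG, and drives mesenchymal states in neural crest and mesoderm.

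The start-site sequences below are shown because each SoxC gene had a peak reaching within 1 kb of its start site in all 4 OE libraries. At Sox4 the peaks of OE libraries 1 and 4 lay downstream of the printed bases. All 3 genes lie on the minus strand of mm10, Sox4 (gene ID 20677) at chr13:28948919-28953699, Sox11 (20666) at chr12:27334268-27342718 and Sox12 (20667) at chr2:152393611-152398046. Each line gives 300 bases of RefSeq sequence of GRCm38.p6, 5′ to 3′ on the strand of the gene, from 250 bases before the start site through 50 bases from it on, with every E-box CANNTG in capitals. They lie at chr13:28953650-28953949 (Sox4), chr12:27342669-27342968 (Sox11) and chr2:152397997-152398296 (Sox12).
Sox4: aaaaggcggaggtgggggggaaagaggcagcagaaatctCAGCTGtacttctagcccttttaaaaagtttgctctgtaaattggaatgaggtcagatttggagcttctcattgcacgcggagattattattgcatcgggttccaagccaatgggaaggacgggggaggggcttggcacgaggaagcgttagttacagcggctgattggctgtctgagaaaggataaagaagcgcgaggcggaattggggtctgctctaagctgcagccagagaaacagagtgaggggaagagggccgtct
Sox11: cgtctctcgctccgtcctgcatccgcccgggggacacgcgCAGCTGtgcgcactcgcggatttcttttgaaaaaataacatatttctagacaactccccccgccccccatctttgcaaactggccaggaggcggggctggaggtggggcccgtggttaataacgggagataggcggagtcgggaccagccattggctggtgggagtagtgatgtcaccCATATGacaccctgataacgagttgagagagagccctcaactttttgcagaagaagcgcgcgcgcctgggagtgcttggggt
Sox12: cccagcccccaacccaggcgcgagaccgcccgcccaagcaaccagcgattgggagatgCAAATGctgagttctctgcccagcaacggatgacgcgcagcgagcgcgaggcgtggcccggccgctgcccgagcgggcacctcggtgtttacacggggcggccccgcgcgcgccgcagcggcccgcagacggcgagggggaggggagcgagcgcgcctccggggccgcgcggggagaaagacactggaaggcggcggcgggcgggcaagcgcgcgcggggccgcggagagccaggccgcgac

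The Sox4 and Sox12 windows held 1 E-box each and the Sox11 window held 2. Of 32851 RefSeq promoter windows of this length, 72.3% held at least 1 and 39.6% at least 2. The Sox4 E-box read CAGCTG and began at position -211 from the start site (chr13:28953905-28953910). In Sox11, CAGCTG began at position -210 (chr12:27342923-27342928) and CATATG at position -32 (chr12:27342745-27342750). CATATG, which is its own reverse complement, was found in 3.91% of the windows. The Sox12 E-box read CAAATG and began at position -192 (chr2:152398233-152398238). None of the 3 windows held CATCTG or CAGATG (17.2% of windows did) or CACCTG or CAGGTG (20.2%), each searched on both strands. None held a double E-box, 2 copies of CANNTG separated by 5 bases, which 0.767% of windows held. All these shorter motifs are also E-boxes, so the counts overlap. The windows held 52% (Sox4), 58.7% (Sox11) and 76.7% (Sox12) G and C, against a median of 52.7% over all windows. A match is a description of letters and not a bound site.

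Depth was not given as reads. The caller's fold enrichment and p-value at a summit fix a whole-number fragment pileup and a background level, and both could be recovered in 99.6% or more of each list's peaks. The commonest background was 1.00 and 1.2 fragments in OE libraries 1 and 4, and 5.38 and 5.29 in OE libraries 2 and 3. KO libraries 2 and 3 had 4.73 and 5.09 fragments, and there were 6.46 in the KO input. The OE lists held 22388, 106821, 87441 and 14160 peaks, against 104 and 71 in the KO lists and 1774 in the KO input. The Twist1 locus had peaks in all 4 OE libraries and in neither KO library, with strongest folds of 10.5 to 48.1. The labels do not say which part of the locus is deleted, so this does not check the knockout. Folds are the authors' values per peak and describe ranks within a list. The recovery took each fold as the pileup plus 1 over the background plus 1. The added 1 lowers folds most where the background is low, as in OE libraries 1 and 4. Fold sizes and their SDs across libraries therefore depend in part on background.

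The first comparison set the number of ChIP peaks listed at the SoxC genes in OE libraries against that in KO libraries. OE libraries 1 to 4 held 9, 44, 33 and 8 SoxC peaks, against 0 in each of the 2 KO ChIP libraries and 1 in the KO input. Each of the OE counts exceeded both KO counts. The mean was 23.5 ± 17.9 peaks in OE (SD, n = 4) and 0 in KO (n = 2), a difference of 4.27 in mean log2(count + 1), whose size depends on the added 1. The two-sided exact permutation test over 15 splits gave p = 0.067, the smallest p this design allows, so it cannot pass 0.05. OE libraries 2 and 3, whose background was like that of the KO libraries, had 44 and 33 peaks. Their lists reached down to a −log10 p of 3.67 and 3.72, against 7.48 and 7.14 in KO libraries 2 and 3. With 7.48 required in every ChIP list the difference in mean log2(count + 1) was 4.10. Over all protein-coding genes, 34.9% had a peak in each OE library and in neither KO library, and all 3 SoxC genes were among them. The KO lists were short everywhere, with a peak at 0.21% and 0.0959% of protein-coding genes in KO libraries 2 and 3. Nearly any gene would thus have no KO peak, so the test says nothing particular to the SoxC genes. The peak lists do not give KO signal below the caller's threshold, so KO signal too weak to be listed at these genes was not measured.

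Sox4 had 5, 25, 16 and 2 peaks in OE libraries 1 to 4, and none in either KO library or the input. Sox11 had 2, 15, 12 and 3 peaks in the OE libraries, none in KO and 1 in the input. Sox12 had 2, 4, 5 and 3 peaks in the OE libraries, and none in KO or the input. Sox4 and Sox11 thus had most peaks in OE libraries 2 and 3, the libraries with the higher background, while the Sox12 counts lay close together. The stretch of genome counted with each gene differed too. It was 205 kb for Sox4 and 208 kb for Sox11, which have no protein-coding neighbour within 238046 and 854430 bp. It was 19.9 kb for Sox12, which lies between Nrsn2, 16985 bp away, and Zcchc3, 13909 bp away. Per 100 kb, Sox12 had 10.1, 20.1, 25.1 and 15.1 peaks in OE libraries 1 to 4, against 1.05, 5.01, 4.16 and 0.672 over the stretches of all genes. Sox4 had 2.44, 12.2, 7.81 and 0.977 per 100 kb, above the value over all genes in each library. Sox11 had 0.959, 7.20, 5.76 and 1.44, which was above it in OE libraries 2, 3 and 4 and below it in OE library 1. These densities were compared with no test and were not adjusted for distance from the gene. The Sox12 stretch ends at the midpoints to its neighbours, while the stretches of all genes reach up to 100 kb from a gene. At least 1 peak was assigned to 47.3%, 80.6%, 77.5% and 37.4% of protein-coding genes in OE libraries 1 to 4, against 0.21% and 0.0959% in KO libraries 2 and 3 and 5.29% in the KO input. In OE library 2, which had the longest list, 1.61% of genes had as many peaks as Sox4 or more, 5.76% as many as Sox11 and 41% as many as Sox12.

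**Figure D1:**
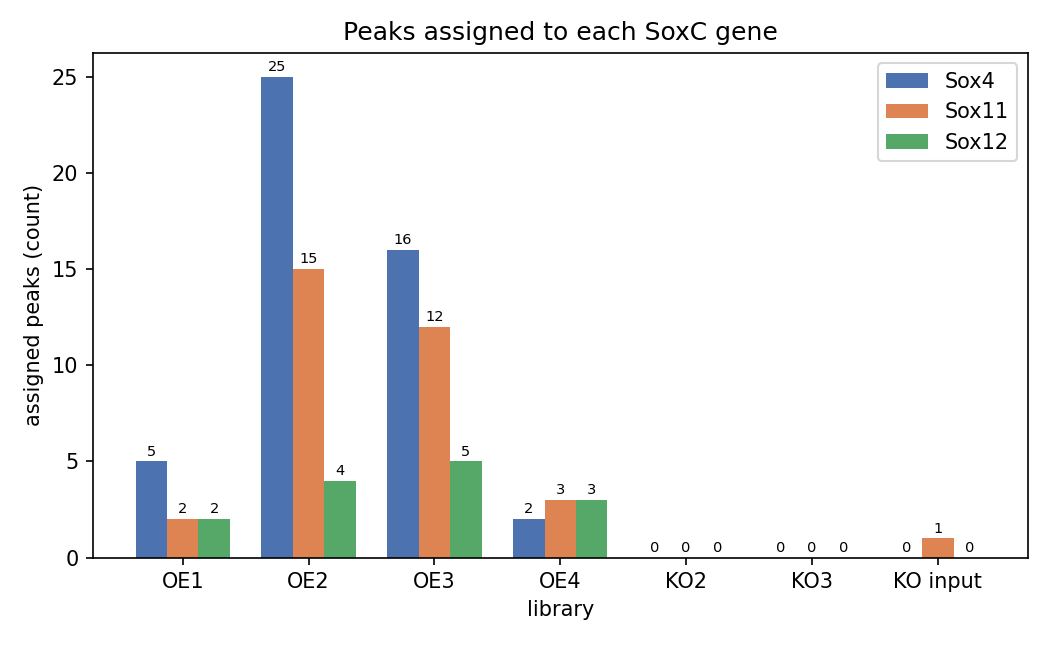
Number of peaks (y axis) assigned to Sox4, Sox11 and Sox12 (bars) in each library (x axis). OE libraries 1 to 4 hold 2 to 25 peaks per gene, the KO ChIP libraries hold 0, and the KO input holds 1 at Sox11.

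OE peaks with 1 bp or more in common were merged across libraries. Each SoxC gene then had 2 regions that were found in all 4 OE libraries and overlapped no KO ChIP or KO input peak, 6 of 10375 such regions in all. Of protein-coding genes, 30.3% had at least 1 such region and 8.46% had at least 2. The count of 6 became 29 with at least 2 of 4 libraries and 3 with equal list lengths or with summits within 100 bp. Of all merged regions, Sox4 had 25, Sox11 had 15 and Sox12 had 3. At Sox4, 12 of them came from 2 libraries and 9 from a single library. At Sox11, 9 came from 2 libraries and 4 from a single library. At Sox12, 1 came from 2 libraries and none from a single library. Of all 119237 merged regions, 46.5% came from 2 libraries and 37.2% from a single library. At Sox4 these shares were 48% and 36%, near those over all regions, and at Sox11 they were 60% and 26.7%.

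Sox12 carried the strongest SoxC peak in each OE library. The region lay at chr2:152391874-152394842, and its mean summit was 393 bp beyond the 3′ end of the gene and 4828 bp downstream of the start site. The fold enrichment was 506, 808, 824 and 307 in OE libraries 1 to 4, a mean of 611 ± 250 (SD, n = 4). No KO or input peak overlapped it. The recovered pileup at the summit was 1013, 6209, 6741 and 675 fragments over a background of 1.00, 6.69, 7.18 and 1.2, which is 1009, 928, 939 and 561 times the background. On that ratio OE library 4 was the lowest and the other 3 lay close together. The summits of the 4 libraries fell within 14 bp of each other, and 7.18% of the 10375 regions had summits that close. By fold the peak ranked 7th of 22308, 16th of 106750, 17th of 87385 and 11th of 14078 in OE libraries 1 to 4. By mean percentile the region ranked 7th of the 10375.

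The other Sox12 region spanned the start site (chr2:152394914-152399979, mean fold 46.1 ± 10.9, SD, n = 4) and ranked 836th of 10375. Its strongest peak reached folds of 52.9, 53.0, 48.5 and 29.97 in OE libraries 1 to 4, again lowest in library 4. The recovered pileup there was 105, 62.6, 57.4 and 54.1 times the background, so OE library 1 stood highest on that ratio. The region did not have a common summit. The strongest summits of the 4 libraries spread over 1763 bp, and 99.4% of the 10375 regions had a spread no wider. The strongest summit was 813 and 782 bp downstream of the start site in OE libraries 1 and 4, and 950 and 926 bp upstream of it in OE libraries 2 and 3. OE library 4 had an upstream peak as well, 910 bp before the start site, with a fold of 23.2. OE libraries 2 and 3 had downstream peaks as well, at 1619 and 1570 bp, with folds of 15.2 and 18.4. A smaller site 6871 to 6879 bp downstream of the start site was listed in OE libraries 2 and 3 with folds of 4.55 and 3.34. The E-box CAAATG in the start-site window lay inside a peak in all 4 OE libraries, 721 to 1002 bp from the nearest summit.

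At Sox11 the strongest peak lay upstream of the gene. The region at chr12:27356900-27358296 had its mean summit 14981 bp before the start site, inside the lncRNA gene Gm30855. Its folds were 44.9, 156, 149 and 30.3 in OE libraries 1 to 4 (mean 95.1 ± 66.7, SD, n = 4), and no KO or input peak overlapped it. The pileups were 97, 994, 938 and 70 fragments. Folds and pileups were higher in OE libraries 2 and 3 than in OE libraries 1 and 4, and within the lists the peak stood at percentiles 95.2, 99.6, 99.6 and 92.5. The 4 summits fell within 20 bp, and 12.9% of the 10375 regions had summits that close. The region ranked 487th of them by mean percentile.

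The Sox11 start site had a broader and weaker region (chr12:27340618-27343899, mean fold 10.9 ± 3.11, SD, n = 4), ranked 6238th of 10375. The strongest peak there had folds of 14.5, 7.37, 9.54 and 12.3 in OE libraries 1 to 4, with 28, 46, 59 and 26 fragments. Here OE libraries 1 and 4 had the higher folds and the lower pileups. The summit was 162 and 215 bp downstream of the start site in OE libraries 1 and 4, and 734 and 97 bp upstream in OE libraries 2 and 3. These summits spread over 949 bp, and 95.2% of the 10375 regions had a spread no wider. CATATG lay inside a peak in OE libraries 1, 2 and 3 but not in OE library 4, where the nearest summit was 244 bp away. In OE library 3 the nearest summit was 68 bp from it. The other E-box, CAGCTG at position -210, lay inside a peak in OE libraries 2 and 3 but not in OE libraries 1 and 4. Its nearest summit was 527 bp away in OE library 2 and 110 bp away in OE library 3.

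Further from Sox11, peaks were listed in OE libraries 2 and 3. The strongest of these had its summit at positions -69436 and -69456 from the start site, with folds of 19.5 and 10.5. Another lay 22045 and 21970 bp downstream of the start site, beyond the 3′ end, with folds of 8.46 and 7.95. The site 50119 and 50120 bp from the gene was enriched 4.07-fold in OE library 2 and 4.29-fold in OE library 3, and the KO input had a peak with a fold of 3.49 at the same place. It is the only SoxC site with a peak in a control list, so its OE peaks cannot be told apart from signal in unprecipitated DNA. It was not listed in OE libraries 1 and 4, and it is not among the 6 regions.

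Sox4 had the most peaks of the 3 genes in OE libraries 1, 2 and 3, and its strongest peak had a lower fold than theirs in every OE library. No site was its strongest in all 4 OE libraries. In OE libraries 1 and 4 the strongest peak lay inside the gene, 585 and 612 bp downstream of the start site, with folds of 12.98 and 8.63 and pileups of 25 and 18 fragments. In OE library 2 it lay 3953 bp beyond the 3′ end, with a fold of 25.4, and OE library 3 had a peak there with a fold of 17.3. In OE library 3 the strongest lay 6126 bp upstream of the start site, with a fold of 19.5, against 17.4 in OE library 2 and 6.99 in OE library 1 for the same site. The site beyond the 3′ end was not listed in OE libraries 1 and 4. The site upstream was not listed in OE library 4.

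The Sox4 regions of all 4 OE libraries were weak. A region at chr13:28868228-28868706, 80417 bp from the gene and inside the lncRNA gene 2610307P16Rik, had folds of 7.32, 10.8, 4.77 and 7.25 in OE libraries 1 to 4. Its summits fell within 88 bp, and 50.2% of the 10375 regions had summits that close. The region at the start of the gene (chr13:28952571-28953255) showed folds of 12.98, 3.92, 3.34 and 8.63. They ranked 9708th and 9620th of the 10375. The region at the start of the gene was held together by the merging. Its summits spread over 445 bp, and 82.5% of the 10375 regions had a spread no wider. Peaks of OE libraries 1 and 4 shared 240 bp and those of OE libraries 2 and 3 shared 341 bp. Between these pairs, only OE libraries 1 and 2 shared any base, 13 bp. At a −log10 q of at least 10, or with equal list lengths, Sox4 had 0 such regions. It had 1 without OE library 1 or 2 and 4 without OE library 4.

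**Figure D2:**
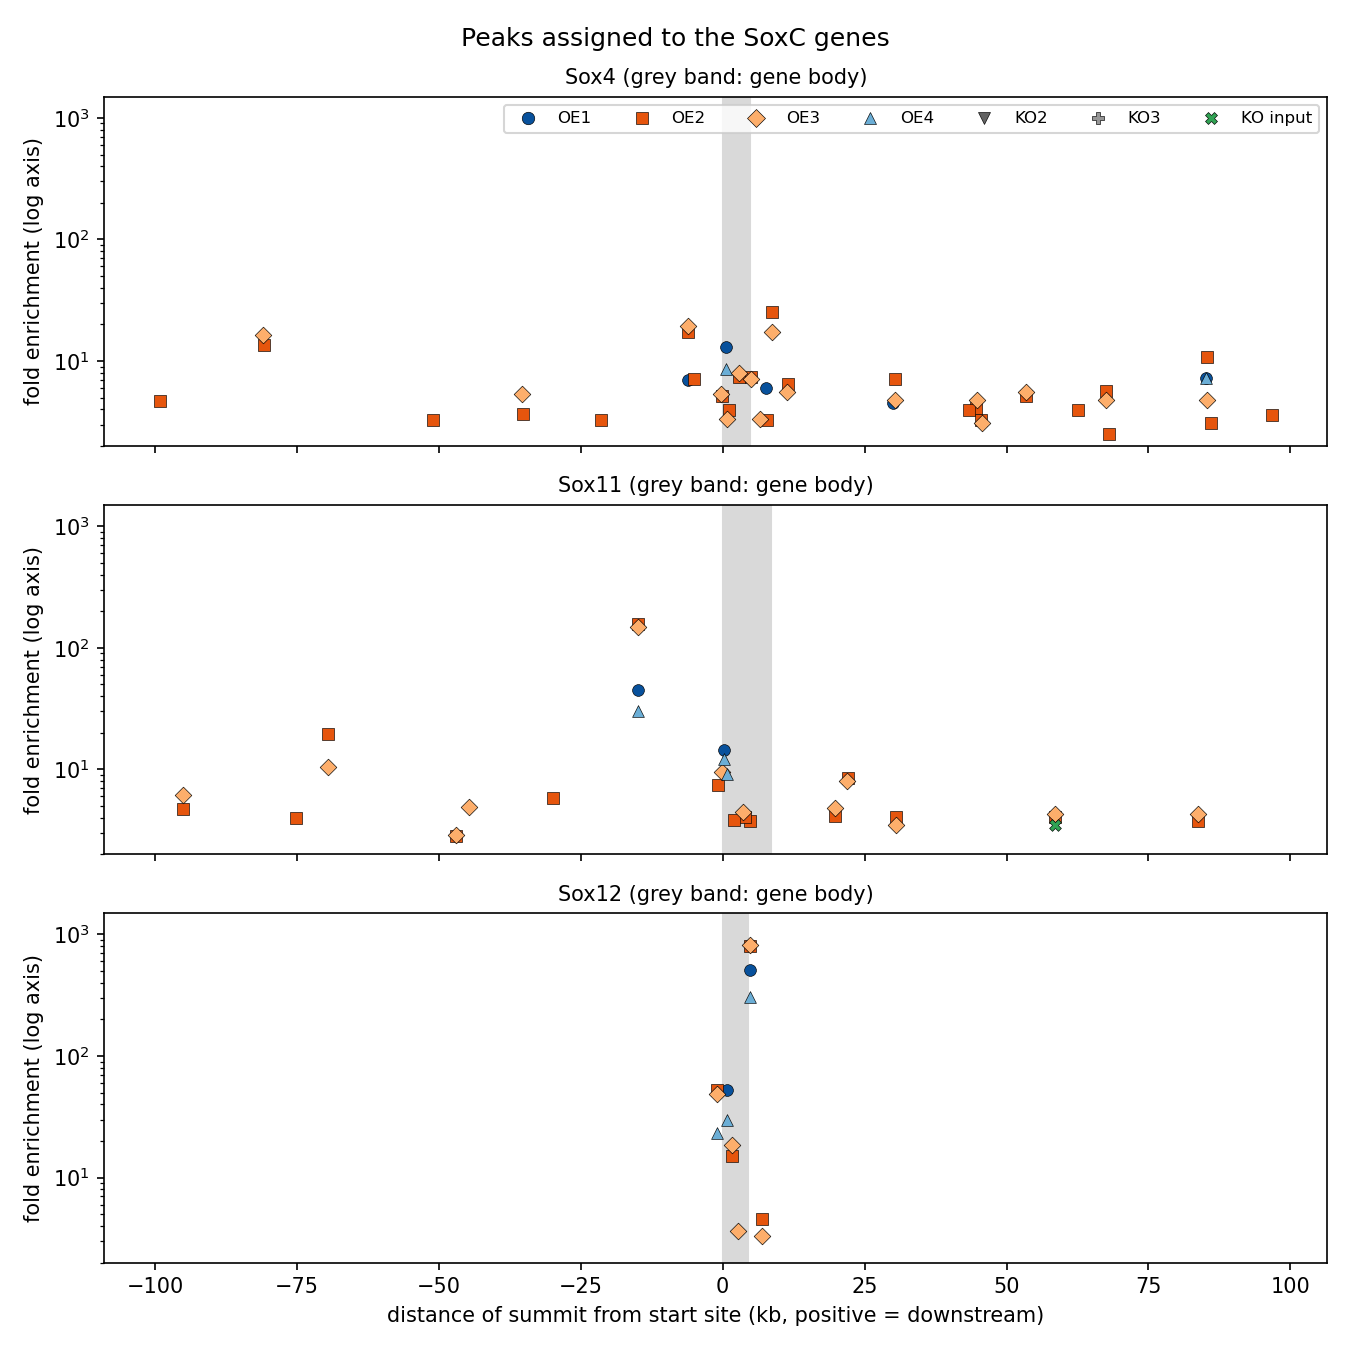
Fold enrichment (y axis, log scale) of each SoxC peak against the distance of its summit from the start site in kb (x axis, positive downstream), with symbols for libraries. KO2 and KO3 have no point. Sox12 peaks with folds of 307 to 824 lie just beyond its 3′ end. The width over which peaks can lie is set by the assignment, 19.9 kb at Sox12 against 205 kb at Sox4 and 208 kb at Sox11.

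Around the start sites the SoxC genes shared a layout that the rule did not use. All 3 had a peak reaching within 1 kb of the start site in each OE library and none in the KO and input lists, as did 18.4% of the 17492 protein-coding genes with a start site in the table. By library the share of these genes with such a peak was 28.7%, 60.5%, 60.1% and 24.1% in OE libraries 1 to 4, against 0.0229% and 0% in KO libraries 2 and 3 and 3.7% in the KO input. The strongest such peak at Sox4 had its summit 585 and 612 bp downstream in OE libraries 1 and 4, and 103 and 256 bp upstream in OE libraries 2 and 3. The strongest peaks lay on the same sides at Sox11 and Sox12. Weaker peaks in reach were downstream in OE libraries 2 and 3, at 1030 and 840 bp (Sox4) and 1619 and 1570 bp (Sox12). Sox11 had one at 1926 bp in OE library 2. Some peaks spanned both sides, as at Sox12 in OE library 1 (positions -1238 to 1494) and Sox11 in OE library 3 (-1029 to 2100). Of 3784 start sites with peaks in all 4 OE libraries and in no control list, 22% had this layout of strongest summits and 4.81% the opposite layout. All 4 summits were downstream in 27.3% and upstream in 23.3%. At Sox4 the peaks of OE libraries 2 and 3 covered the whole 300-bp window, with summits 105 and 48 bp from its E-box, and those of OE libraries 1 and 4 covered none of it. OE libraries 1 and 4 are also the libraries with low background, and the part of depth in this layout was not tested.

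**Figure D3:**
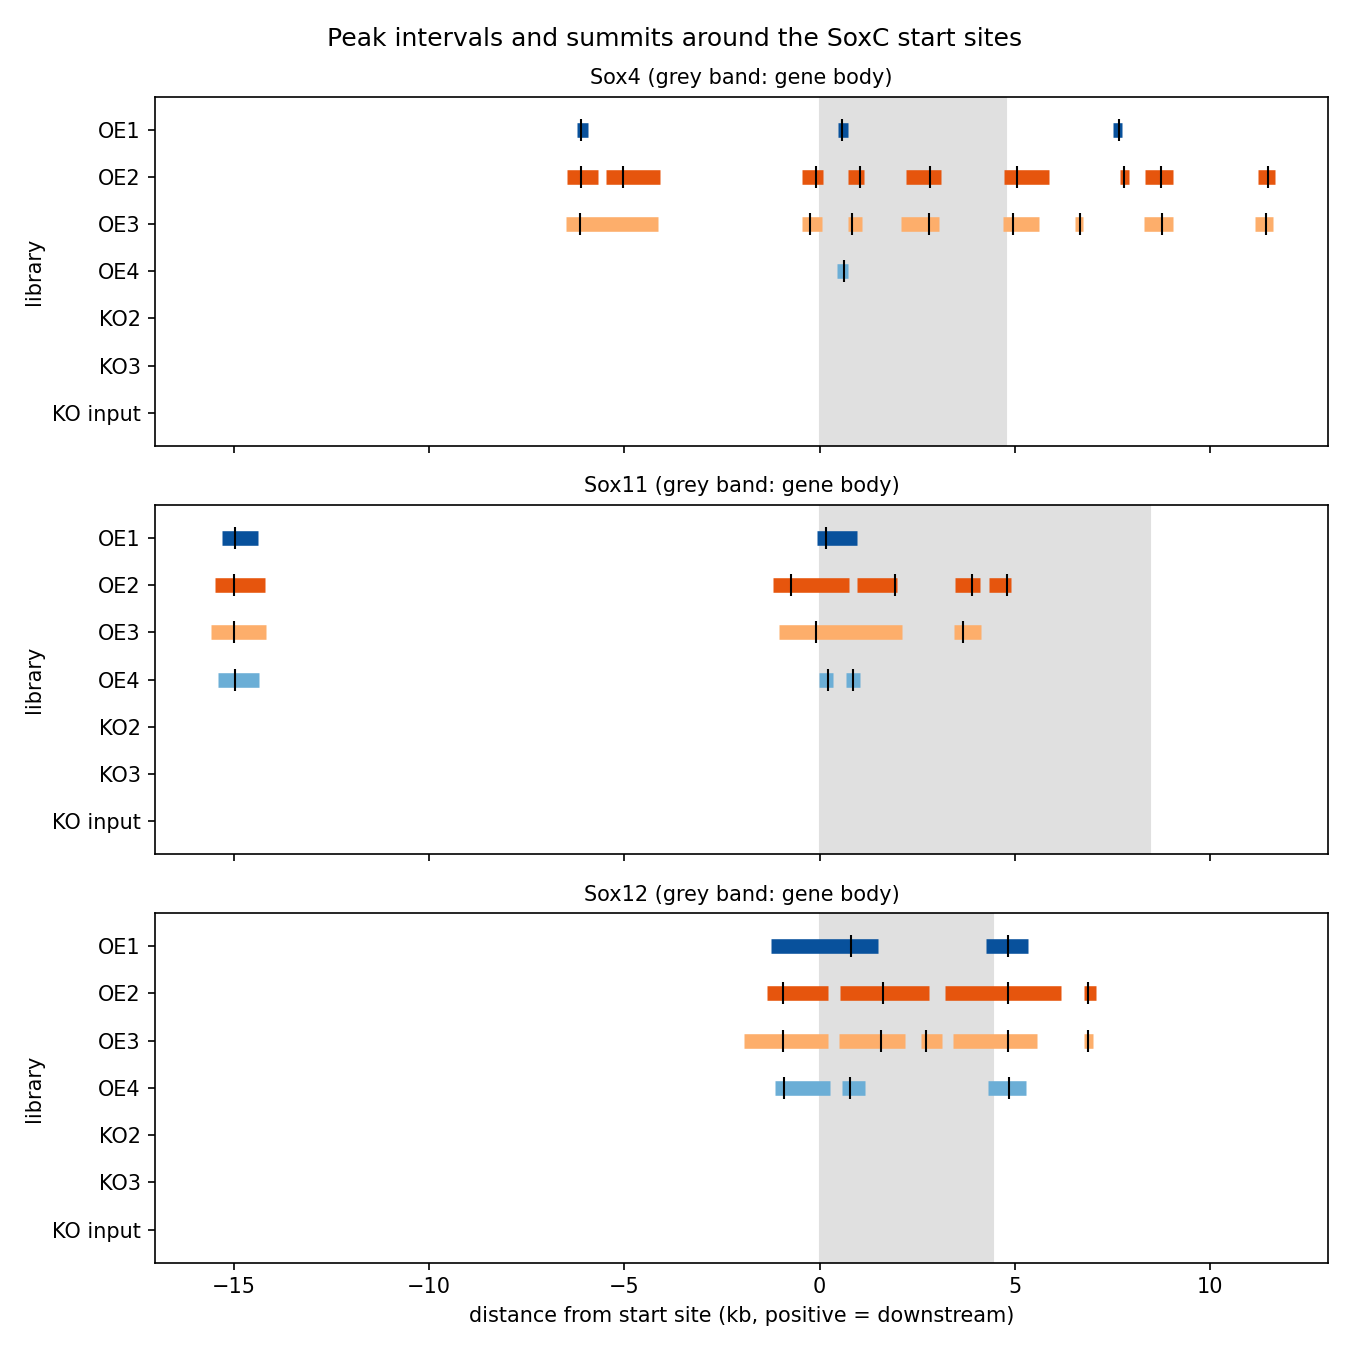
Peak intervals (bars) and summits (black ticks) in each library (rows) against distance from the start site in kb (x axis, positive downstream). Peaks of OE libraries 2 and 3 cover all 3 start sites. Those of OE libraries 1 and 4 cover the start sites of Sox11 and Sox12 but not that of Sox4. The KO and input rows hold no peak in the range shown.

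**Figure D4:**
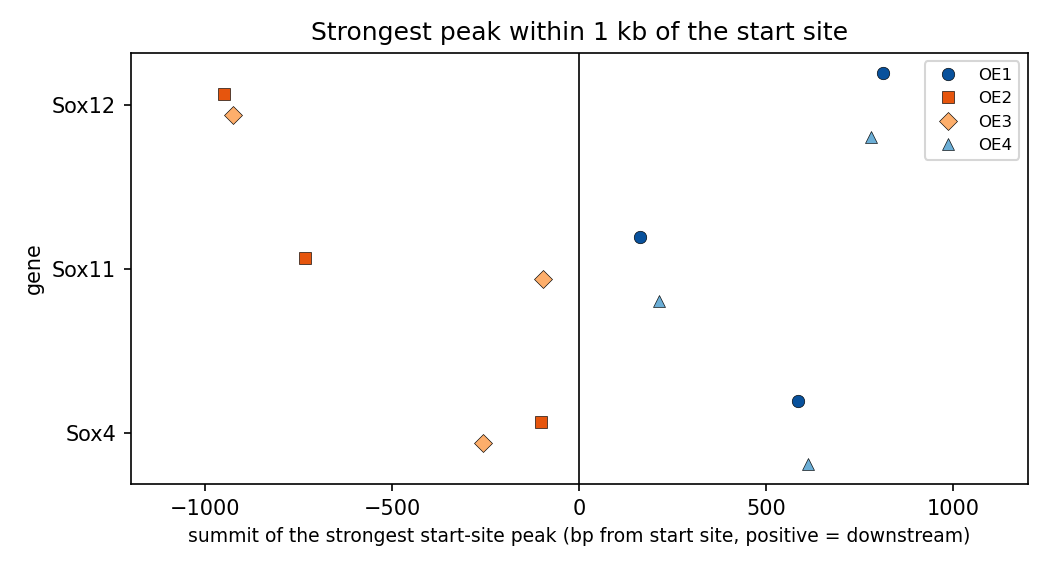
Summit of the strongest peak within 1 kb of each SoxC start site, in bp from the start site (x axis), for OE libraries 1 to 4. OE libraries 1 and 4 lie downstream, at 162 to 813 bp, and OE libraries 2 and 3 lie upstream, at 97 to 950 bp. Weaker peaks, some of them on the other side, are not shown.

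The second comparison set the SoxC genes against each other within each OE library. The strongest Sox12 peak stood at percentile 99.97 ± 0.0262 of its list by fold (SD, n = 4), the strongest Sox11 peak at 96.7 ± 3.49 and the strongest Sox4 peak at 74.7 ± 24.3. The order Sox12, Sox11, Sox4 held in 4 of 4 libraries. Sox12 exceeded Sox4 by 25.3 ± 24.3 percentile points, with differences from 4.76 to 56.1. Sox12 exceeded Sox11 by 3.25 ± 3.47 points, and Sox11 exceeded Sox4 by 22.0 ± 20.9 points. The two-sided exact sign-flip permutation test gave p = 0.13 for each of the 3 pairs, and 0.13 after Benjamini-Hochberg adjustment, the smallest that 4 libraries allow. With OE libraries 2 and 3 only, the differences were 5.84, 0.403 and 5.43 points in the same order of pairs. The Sox4 mean rests on percentiles of 66.7 and 43.8 in OE libraries 1 and 4 and 95.2 and 93.1 in OE libraries 2 and 3. By fold these Sox4 peaks ranked 7427th of 22308, 5094th of 106750, 6063rd of 87385 and 7913th of 14078 in OE libraries 1 to 4. A percentile depends on list length as well as on rank. The part of list length in the differences between genes was not tested. Within 10 kb of the gene the order of Sox11 and Sox4 turned, to a mean difference of -2.90 points (exact permutation p = 0.875), since the strongest Sox11 peak lies further away than that. That Sox12 held one of the strongest regions was known when the genes were chosen.

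**Figure D5:**
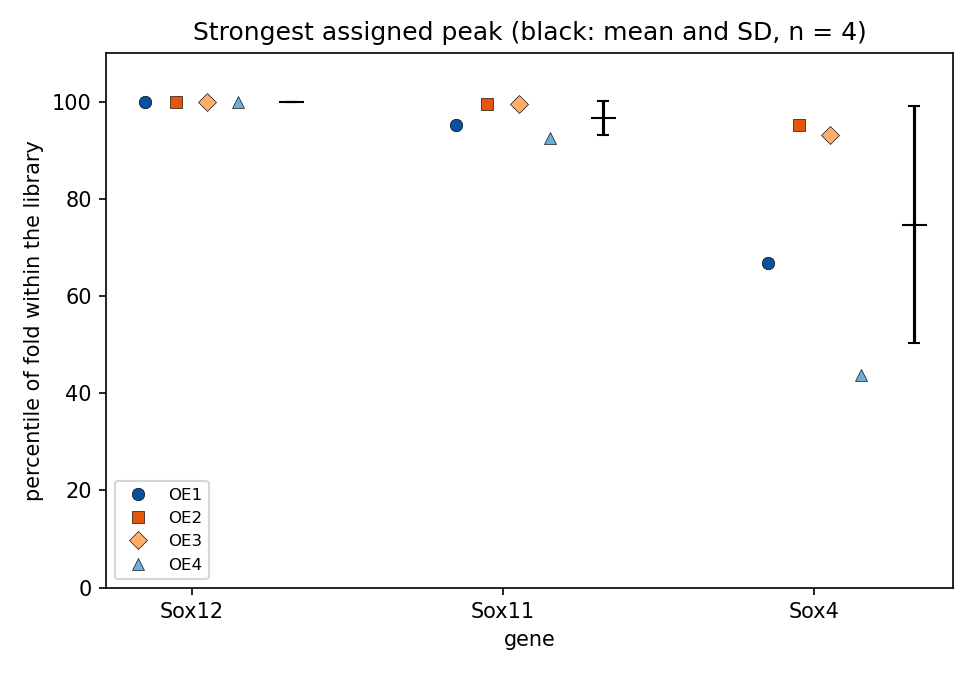
Percentile by fold (y axis) of the strongest peak of each SoxC gene (x axis) within each OE library, with mean and SD (n = 4). All 4 Sox12 values lie above 99.9, Sox11 values run from 92.5 to 99.6, and Sox4 values from 43.8 to 95.2.

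Among the 7673 protein-coding genes with a peak in all 4 OE libraries, Sox12 ranked 6th by mean percentile of the strongest peak, Sox11 553rd and Sox4 4412th. Genes were also ranked by how closely their strongest folds matched over the 7 libraries, as a distance in log2(1 + fold), with 0 for no peak. The nearest to Sox12 were Gm28455 (0.334), Kdf1 (0.530), a regulator of keratinocyte differentiation, and Ehbp1 (0.574). Nearest to Sox11, which has the input peak, were Fkbp9 (0.262), Klf9 (0.269), a zinc finger transcription factor gene, and Ptprs (0.389), a receptor phosphatase gene. All 3 had an input peak too, with folds of 3.49, 3.62 and 3.62, as did 5.29% of protein-coding genes. The Sox11 matches thus depend in part on that weak input peak, since a gene without one was counted as 0 there. Nearest to Sox4 were Plpbp (0.148), Dnajb14 (0.156) and Eif4a2 (0.170), a translation initiation factor gene. These distances describe peak strength only.

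In the rest of the family, 9 of 17 other SOX genes had at least 1 region of all 4 OE libraries, 52.9%, against 30.3% of protein-coding genes, with no test. These shares were not adjusted for the stretch of genome counted with each gene, which differs between genes. Sox5, a SoxD gene of neural crest and cartilage, had 4 regions, and Sox1, Sox2 and Sox9 had 2 each. The strongest Sox9 peak had folds of 101, 317, 281 and 77.2 in OE libraries 1 to 4. That of Sox5 had folds of 91.3, 264, 265 and 47.7, and that of Sox2, a SoxB1 gene of neural progenitors, 36.9, 220, 127 and 34.96. Each of these stood below the Sox12 peak in every OE library by fold.

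Of 12 genes known from other work as partners or targets of SoxC proteins, 7 had a region, 58.3%, against 30.3% of protein-coding genes. This too had no test and no adjustment for the stretch of genome counted with each gene. Tead2, a transcription factor gene of the Hippo pathway, had folds of 22.5, 97.6, 84.7 and 14.5 in OE libraries 1 to 4. Prox1, a homeobox gene, had 35.4, 7.84, 8.26 and 27.2. Nes, the gene of the progenitor filament nestin, had 16.5, 64.3, 77.2 and 9.53. Pou3f3, Tubb3, Dcx, Stmn2 and Ncam1 had no region of all 4 libraries. Tubb3, a neuronal tubulin gene, was listed at 25.4-fold in OE library 2 and 19.1-fold in OE library 3, with no peak in OE libraries 1 and 4. Dcx, a microtubule protein gene of migrating neurons, had a peak in OE library 2 alone, with a fold of 3.60.

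The distance limit left peaks on either side of it. At Sox4, OE library 2 had a peak 99141 bp from the gene with a fold of 4.70, just inside, and another 104262 bp away with a fold of 4.39, just outside. At Sox11 the outermost peak inside was 95119 bp away with a fold of 4.70 in OE library 2, and the nearest outside was 123163 bp away with a fold of 4.45 in OE library 3. At Sox12 the limit is the midpoint to the next gene, and OE library 2 had peaks 563 and 1362 bp past it, on opposite sides, with folds of 2.98 and 5.26. The peak of that library nearest to the limit on the inside was 6005 bp short of it, with a fold of 52.97.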

How the data were processed

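MACS2, Picard, BWA and Trimmomatic are the tools, and mm10 and GRCm38.p5 the builds, per the submitters' processing notes. The sources used here do not give versions, settings or the caller's control, and that control can change which peaks are listed. The deposited lists, 1 per library and not pooled, give for each peak a fold enrichment over local background, a ratio on a linear scale that the authors deposited. They also hold the authors' −log10 p-value and −log10 q-value, and a deposited whole-number score that was not used. The largest deposited q-value was 0.00995.

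Computation used scipy 1.17.1, pandas 2.3.3, numpy 2.4.6 and Python 3.11.15, and figures matplotlib 3.10.9. Chromosomes 1 to 19, X and Y were used, with coordinates counted from 1. Gene bodies are those of RefSeq on GRCm38.p6, which has the coordinates of mm10 on these chromosomes. Strand and start sites came from its promoter table. Exons were not used, and sequence outside promoter windows was not used here. A summit inside several genes counts with each. A region's summit is the mean of the strongest summit per library. Fragment pileup was solved from fold and p-value, accepted within 0.01 of the −log10 p or 1e-05 of it. Groups came from sample titles. Procedures were tested on simulated data.

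Members and gene lists were chosen with earlier results of these data known. Named are the SoxC genes, their neighbours, the 3 nearest genes by fold, the other SOX genes leading by regions or by mean percentile, and the SoxC partners and targets leading by mean percentile or without a region. Tubb3 and Dcx were described further after their values were seen. Alternatives covered distance, q-value, overlap, libraries required, list length and each replicate. Intervals from reads cannot be given, and depth is known only through the recovered background.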

Additional observations from a re-analysis of the deposited data

How the results depend on the processing

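The OE minus KO difference in mean log2(count + 1) of SoxC peaks kept its sign in all 14 alternatives. With 0 SoxC peaks in both KO libraries, no alternative could have turned the sign, so this is no measure of robustness. It ran from 3.86 to 4.63 without a replicate, and was 5.29 for OE libraries 2 and 3 only, chosen after seeing the data. On counts without log2 it was 23.5 peaks (exact permutation p = 0.133). With replicates 2 and 3 as a replicate block it was also 5.29 (exact sign-flip permutation p = 0.5, the smallest that 2 pairs allow). Nothing in the labels ties these numbers together, and with 0 SoxC peaks in both KO libraries the pairing could not be checked. The number of SoxC regions of all 4 OE libraries was 6. It was 29 with at least 2 of 4 libraries, 29 with OE libraries 2 and 3 only, 3 with summits within 100 bp and 3 with equal list lengths. It was 5 to 8 without a replicate, and within 1.5 times 6 in 13 of 17 alternatives. The Sox12 count was 1 to 4, the Sox11 count 1 to 10 and the Sox4 count 0 to 16 over these. The percentile difference was 15.0 to 32.1 points for Sox12 minus Sox4, 1.85 to 4.20 for Sox12 minus Sox11 and 13.1 to 27.9 for Sox11 minus Sox4 without a replicate, each lowest without OE library 4. Ranked among peaks in regions of all 4 libraries, these were 64.9, 6.17 and 58.8 points, and Sox12 minus Sox11 was 28.2 within 10 kb. Sox11 minus Sox4 reversed to -2.90 points within 10 kb, where the Sox11 peak 14981 bp upstream is out of range. No test here can pass 0.05.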
